A study of Mus musculus with 30 samples.

Results

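The genes described here are 10 genes for proteins that visceral endoderm secretes into embryonic serum: Afp, Ttr, Apoa1, Apoa2, Apoa4, Apob, Apoe, Fgb, Fgg and Rbp4. They were chosen by name, from the role of their products, with earlier results of these data known. All 10 were found among the 35275 entries of the deposited bulk RNA-seq table. They were followed through the conversion of mouse embryonic fibroblasts (MEFs) by small molecules into chemically induced pluripotent stem cells (CiPSCs). Of the 30 samples of the series, 14 are bulk RNA-seq libraries and are used here; 12 single-cell samples and 4 bisulfite samples were not. Each group has 1 library. Differences are therefore between libraries, without replicates and without p-values.

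MEFs came from E13.5 embryos of the strain C57BL/6J-Tg(GOFGFP)11Imeg/RbrcxICR. The XEN-like line, the intermediates other than the Zscan4c reporter pair and CiPSC line #1 have the same strain name in the labels, written with _brcxICR at its end. XEN-like cells, named for extraembryonic endoderm stem cells, were a purified line in stage I medium (VC6TFAE) with 20 ng/ml bFGF. In the timed cultures the cells were replated at day 12, stage II medium began at day 16 and stage III medium at day 28. Day 12 of stage II was sampled in N2B27 medium and in FBS/KSR medium. The N2B27 protocol replates the cells on feeders, mitomycin C-treated MEFs. A further library of that day came from a sort for OG+PDGFRAlow/-PECAM- cells; the labels do not spell out OG. Later samples were from stage III, at day 4 without and with a treatment called Opt. VPA (VPA is the usual short name of valproic acid, a histone deacetylase inhibitor), and at days 6, 15 and 21. The labels give no stage II medium for the sorted cells, for the stage III libraries or for the reporter pair. CiPSCs and embryonic stem cells (ESCs; ICR x ICR, from an E3.5 embryo) were kept on feeders with LIF at 10 ng/ml, the GSK3 inhibitor CHIR99021 at 3 µM and the MEK inhibitor PD0325901 at 1 µM. The reporter pair was made from XEN-like cells that came from ESCs with a pZscan4c-Emerald reporter (129S6/SvEvTac x C57BL/6Ncr) and was sorted at stage II day 12 as Em- or Em+. Strain and starting cells therefore differ together between this pair and the other libraries.

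The visceral endoderm is the epithelium around the early embryo that later lines the yolk sac. It takes up nutrients from the mother and secretes serum proteins before the liver exists, and the liver later makes many of the same proteins. Apolipoproteins package lipid into particles that receptors recognise, fibrinogen is the clotting protein built of 3 kinds of chain, transthyretin and retinol-binding protein carry thyroid hormone and vitamin A, and alpha-fetoprotein is the albumin-like protein of fetal serum. In the embryo these genes are regulated by nuclear receptors such as HNF4A, by homeodomain factors and by forkhead factors of the FOXA family.

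The members lie in 8 places of the genome (RefSeq gene spans, GRCm38.p6). Apoa1 (chr9:46228630-46230469) and Apoa4 (chr9:46240844-46243458) form a cluster with Apoc3 and Apoa5, and Fgg (chr3:83007724-83015056) and Fgb (chr3:83042246-83049863) flank Fga. Apoe (chr7:19696244-19701310) lies beside Apoc1, Apoc4 and Apoc2, and Afp (chr5:90490714-90508907) lies between Alb and Afm. Apoa2 (chr1:171221564-171226379), Apob (chr12:7977629-8016839), Rbp4 (chr19:38116620-38125321) and Ttr have no other member beside them. The table gives 1 value per gene, so exons, introns and isoforms are not resolved.

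The windows upstream of 5 of these genes are printed here because 2 pairs of them (Apoa1 with Apoa4, Fgb with Fgg) are near neighbours whose levels moved together across libraries, while Afp stayed low throughout. Moving together was not particular to neighbours. Of the 45 pairs of members, 4 had a Pearson r above 0.8 over the 14 libraries: these 2 pairs, Fgb with Rbp4 (0.87) and Afp with Apoa4 (0.80). Fgb and Rbp4 lie on different chromosomes, as do Afp and Apoa4. Each window is the 250 bases before the gene start in RefSeq (build GRCm38.p6), read 5′ to 3′ on the strand of the gene. Capitals mark matches, on either strand, to GTTAAT (a homeodomain factor half-site), TGTTTNC (a forkhead core), AGGTCA (a nuclear receptor half-site) or TATAAA (the promoter element of that spelling).
Apoa1 (chr9:46228380-46228629, plus strand): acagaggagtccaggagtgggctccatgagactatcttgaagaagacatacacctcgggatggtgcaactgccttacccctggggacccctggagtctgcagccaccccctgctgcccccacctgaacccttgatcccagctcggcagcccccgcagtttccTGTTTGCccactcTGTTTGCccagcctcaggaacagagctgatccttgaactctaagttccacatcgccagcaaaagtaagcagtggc
Apoa4 (chr9:46240594-46240843, plus strand): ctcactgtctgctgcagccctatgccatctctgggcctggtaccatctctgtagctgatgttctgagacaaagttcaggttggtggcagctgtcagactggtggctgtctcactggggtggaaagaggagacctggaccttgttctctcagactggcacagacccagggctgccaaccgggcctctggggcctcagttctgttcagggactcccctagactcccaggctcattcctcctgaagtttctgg
Fgb (chr3:83049864-83050113, minus strand): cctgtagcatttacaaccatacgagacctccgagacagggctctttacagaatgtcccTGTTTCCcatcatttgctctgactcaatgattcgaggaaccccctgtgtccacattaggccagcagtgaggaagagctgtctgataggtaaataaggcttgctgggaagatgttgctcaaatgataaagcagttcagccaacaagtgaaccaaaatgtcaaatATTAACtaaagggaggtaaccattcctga
Fgg (chr3:83007474-83007723, plus strand): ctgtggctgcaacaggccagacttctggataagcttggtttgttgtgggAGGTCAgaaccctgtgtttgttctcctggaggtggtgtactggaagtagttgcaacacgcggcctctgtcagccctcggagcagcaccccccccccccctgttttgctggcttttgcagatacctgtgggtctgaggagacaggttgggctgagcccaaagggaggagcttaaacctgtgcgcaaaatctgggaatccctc
Afp (chr5:90490464-90490713, plus strand): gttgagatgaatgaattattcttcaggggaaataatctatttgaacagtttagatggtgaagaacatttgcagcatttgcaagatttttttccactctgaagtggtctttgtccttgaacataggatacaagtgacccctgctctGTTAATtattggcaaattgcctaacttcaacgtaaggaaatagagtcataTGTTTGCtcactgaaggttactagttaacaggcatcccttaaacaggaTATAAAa

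The Apoa1 window held 2 forkhead matches, from -88 to -82 and from -75 to -69 counted from the gene start, and the Apoa4 window held none of the 4 motifs. The Fgb window held a forkhead match at -192 to -186 and a GTTAAT match at -29 to -24 on the other strand. The Fgg window held a nuclear receptor half-site at -201 to -196. Afp, the gene of these 5 with the lowest peak level, had a GTTAAT match at -105 to -100, a forkhead match at -55 to -49 and a TATA match at -7 to -2. The neighbours that moved together shared no motif in these windows. Over 32851 RefSeq windows of the same length, GTTAAT was in 6.43%, the forkhead core in 17.8%, the nuclear receptor half-site in 14% and the TATA box in 12.4%. A match describes letters only. Windows were searched for 9 of the 10 members, and Ttr was left out of this search.

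Levels are given as FPKM, the authors' fragments per kilobase of gene, scaled to the size of the library. Division by length puts genes on a common scale. The annotation and strand setting are not stated, so ratios between genes carry a further uncertainty that the counting intervals leave out. The reads behind each value were recovered from the table. The smallest library was the day 4 control with 6601290 reads, and the largest was FBS/KSR with 15294927. Mitochondrially encoded genes took 14.1% of reads in Em- and 7.37% in Em+, and 1.25% to 4.67% in the other 12. A range after a value or a ratio is its exact 95% counting interval (Poisson for a level, binomial for a ratio), which covers counting error only. Where a library had 0 reads, the ratio is a lower bound that puts 3 reads there.

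The label was checked against marker genes first. The XEN-like library held high levels of parietal endoderm genes, which build the thick outer membrane of the yolk sac: Srgn stood at 818 FPKM, Lama1 at 639, Pth1r at 769.8 and Col4a2 at 2962. All 15 genes of the parietal list were at 10 FPKM or more there. That count did not set XEN-like cells apart: MEF had 13 at that level, and N2B27, both day 4 libraries, day 6 and day 15 had 15. Against MEF, 9 of the 15 were higher at 2-fold in XEN-like cells and 3 were lower. Of the 17 visceral endoderm markers, 15 were at 1 FPKM or more and 10 at 10 FPKM or more. They included the endocytic receptor genes Cubn at 105 FPKM and Lrp2 at 122, the adaptor Dab2 at 148, Cited1 at 1228 and Ihh at 90.6. Amn, the partner of cubilin, was at 3.92 FPKM, and Cdh1 at 17.7. Of the 17 factor genes, 10 were at 1 FPKM or more, among them Gata4 (886 FPKM), Sox17 (405), Foxa2 (144) and Hnf4a (4.55), and 7 were below 1 FPKM, among them Foxa1 (0.370), Foxa3 (0.776) and Cebpa (0.896). The serum protein genes did not share these levels: beside Apoe and Rbp4, their highest value in XEN-like cells was 1.29 FPKM. Some receptor and factor genes of visceral endoderm were thus high in a library where most of the serum protein genes were low, so the members are called serum protein genes from here on and not markers of a cell type. In bulk libraries, fewer cells of a type and less RNA per cell cannot be told apart.

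Markers of other tissues that make these proteins were read in the same libraries. Albumin (Alb), the defining hepatocyte product, reached at most 0.116 FPKM, or 2 reads. The 14 liver markers had at most 4 members at 1 FPKM or more in any library, with summed levels from 15.1 to 501.6 FPKM that followed the urea cycle gene Ass1 (15.1 to 501 FPKM). Tat reached at most 18.6 FPKM and Pck1 2.12. Of 11 macrophage genes found, the lysosomal gene Cd68 ranged from 3.55 to 122 FPKM, Lyz2 reached 14.6 in FBS/KSR, the receptor gene Csf1r 11.6 at day 6 and 11.5 at day 15, and Fcer1g 5.43 and Tyrobp 4.24 at day 15. Ptprc and Emr1 reached at most 0.610 FPKM. The list's sum was 8.22 FPKM in XEN-like cells, 30.1 in N2B27, 113 in FBS/KSR, 87.7 at day 6 and 107 at day 15, and was highest in the sorted OG+ library (134 FPKM), where Cd68 made 122 of it. The embryonic globin gene Hba-x had 0 reads in all 14 libraries. In order of range, the leading genes and their highest FPKM were Folr1 (315), Clic6 (73.5), Otx2 (29.0) and Aqp1 (26.8) for choroid plexus, and Cdx2 (187), Cdx1 (30.9), Lgals4 (78.8) and Muc13 (7.03) for intestine. For blood and endothelium they were Pecam1 (105), Cdh5 (35.1), Tek (9.78) and Kdr (2.45), and for trophoblast Gata3 (266), Cdx2 (187), Hand1 (133) and Tfap2c (105). For pluripotency they were Dppa5a (3863), Pou5f1 (756), Nanog (518) and Utf1 (289.6), and for fibroblasts Col1a2 (5610), Col1a1 (9144), Col3a1 (3251) and Bgn (2493). Summed levels of these lists ran from 3.12 FPKM in MEF to 279 in the sorted OG+ cells for intestine (10 genes), from 11.3 in MEF to 328 in the sorted OG+ cells for choroid plexus (9 genes, of which 3 were at 1 FPKM or more in those cells and Folr1 made 315 FPKM), and from 1.36 in MEF to 114 at day 21 for blood and endothelium (9 genes). Pluripotency genes (12) summed to 109 FPKM in MEF and 6511 in CiPSC, fibroblast genes (15) to 24880 in MEF and 177 in CiPSC, and trophoblast genes (13) to 8.95 in MEF and 1093 in the sorted OG+ cells. The part of these cell types in the results below was not tested.

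**Figure D1:**
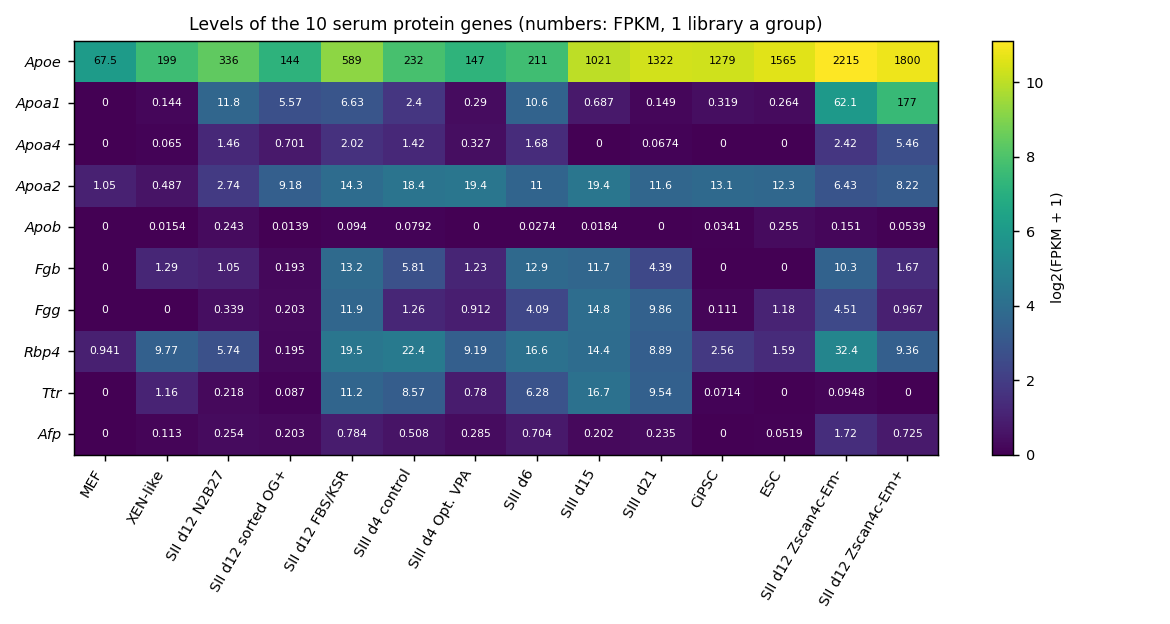
Each cell is the level of a member (row) in a library (column), coloured by log2(FPKM + 1) and printed as FPKM. Apoe is at 67.5 FPKM or more everywhere, Apoa1 stands out in the Em- and Em+ libraries, Ttr, Fgb and Fgg are highest in FBS/KSR or at stage III day 15, and Apob and Afp are low throughout.

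Apolipoprotein E, the ligand by which lipoprotein remnants bind receptors of the LDL receptor family, was the most abundant member in each of the 14 libraries. From MEF at 67.5 FPKM, Apoe stood at 199 in the XEN-like library, 336 in N2B27, 589 in FBS/KSR and 144 in the sorted OG+ cells. Stage III gave 232 FPKM in the day 4 control, 147 with Opt. VPA, 211 at day 6, 1021 at day 15 and 1322 at day 21. CiPSC stood at 1279 FPKM, ESC at 1565, Em- at 2215 and Em+ at 1799.8. The order from MEF to Em- spanned 5.02 on the log2(FPKM+1) scale, and 11 of the 13 steps between neighbours in that order exceeded counting error. The exceptions were day 6 against XEN-like cells and Opt. VPA against the sorted OG+ cells. Apoe made 76.7% of the members' summed FPKM at day 6, its lowest share, and 99.0% in ESC, its highest. Sums over the 10 genes therefore describe Apoe, and the other 9 together ranged from 2.00 FPKM in MEF to 203 in Em+.

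Its neighbours on chromosome 7 encode the small apolipoproteins C1, C4 and C2, which modulate lipases and receptor binding. Apoc1 was close to absent in XEN-like cells, at 0.258 FPKM or 1 read, where Apoe stood at 199. Apoc1 then stood at 106 FPKM in N2B27, 49.6 in FBS/KSR, 21.8 at day 6, 118 at day 21 and 221 in Em+. The Apoe to Apoc1 ratio ran from 2.13 (1.87 to 2.44) in the sorted OG+ cells to 770.1 (138 to 30439) in XEN-like cells, so the neighbours were not held in a fixed ratio. Apoc2, the cofactor of lipoprotein lipase, was highest in CiPSC at 16.8 FPKM, and Apoc4 did not exceed 1.31.

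Apolipoprotein A1, the main protein of high-density lipoprotein (HDL), had the widest range of the 10 on the log2 scale, 7.48. Apoa1 had 0 reads in MEF, where 3 reads would be 0.375 FPKM, and 1 read in XEN-like cells (0.144 FPKM). It stood at 11.8 FPKM in N2B27, 5.57 in sorted OG+ cells and 6.63 in FBS/KSR. In stage III it was 2.40 FPKM in the control, 0.290 with Opt. VPA, 10.6 at day 6, 0.687 at day 15 and 0.149 at day 21. CiPSC and ESC gave 0.319 and 0.264 FPKM, whereas Em- gave 62.1 and Em+ 177, the latter from 1054 reads. Em+ and Em- were the 2 highest libraries, and the gap from Em- to N2B27 was 5.25-fold (4.09 to 6.82). Strain and starting cells differ along with that gap.

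Apolipoprotein A4, an HDL and chylomicron protein of the intestine, lies in the same cluster on chromosome 9. Apoa4 was highest in Em+ at 5.46 FPKM, followed by Em- at 2.42, FBS/KSR at 2.02, day 6 at 1.68, N2B27 at 1.46 and the day 4 control at 1.42. It stood at 0.701 FPKM in sorted OG+ cells, 0.327 with Opt. VPA, 0.0674 at day 21 and 0.0650 in XEN-like cells. It had 0 reads in MEF, day 15, CiPSC and ESC, where 3 reads would be 0.144 to 0.232 FPKM. Apoa1 and Apoa4 had the highest Pearson correlation of the 45 pairs of members (r 0.94 on log2(FPKM+1), 14 libraries that share a table and its scaling). Their Spearman rho was 0.85, below that of Afp with Apoa4 (0.93) and of Fgb with Rbp4 (0.87). The Apoa1 to Apoa4 ratio was 3.28 (2.31 to 4.70) in FBS/KSR, 6.34 (4.11 to 10.0) at day 6, 25.7 (18.4 to 36.8) in Em- and 32.4 (25.5 to 41.8) in Em+. Both genes were highest in Em+ and next in Em-. For Apoa4 the step from Em- to FBS/KSR, 1.20-fold (0.773 to 1.84), was within counting error. Apoc3, the lipase inhibitor gene between them, stood at 3.91 FPKM in Em- and 7.38 in Em+ and at or below 1.04 in the other 12, and Apoa5 did not exceed 0.171.

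Apolipoprotein A2, the second protein of HDL, followed another course. Apoa2 stood at 0.487 FPKM in XEN-like cells, 1.05 in MEF and 2.74 in N2B27, against 14.3 in FBS/KSR and 9.18 in sorted OG+ cells. Stage III gave 18.4 FPKM in the control, 19.4 with Opt. VPA, 11.0 at day 6, 19.4 at day 15 and 11.6 at day 21. CiPSC, ESC, Em- and Em+ gave 13.1, 12.3, 6.43 and 8.22 FPKM. The gene was at 5 FPKM or more in all libraries except MEF, XEN-like cells and N2B27, and within the order only the step from Em- to N2B27 exceeded counting error (2.35-fold, 1.10 to 5.45). Reads per library were few, 2 to 106, because the gene is short (485 bases as counted by the authors). Apoa2 was the second most abundant member in CiPSC and ESC, where Apoa1 stood at 0.0243 (0.00491 to 0.0740) and 0.0215 (0.00254 to 0.0816) of it. In Em+, by contrast, Apoa1 was 21.5 times (14.9 to 32.3) Apoa2. In RefSeq, Apoa2 overlaps Tomm40l, whose entry reached 8.33 FPKM in N2B27, and without a stated strand setting their shared reads cannot be told apart.

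Apolipoprotein B, the structural protein of very-low-density particles, was the least expressed member. Apob stayed under 0.3 FPKM in every library. Its highest value was 0.255 FPKM in ESC from 18 reads, then 0.243 in N2B27, 0.151 in Em-, 0.0940 in FBS/KSR and 0.0792 in the day 4 control. Em+ had 0.0539 FPKM, CiPSC 0.0341, day 6 0.0274, day 15 0.0184, XEN-like cells 0.0154 and sorted OG+ cells 0.0139, all from 3 reads or fewer. MEF, Opt. VPA and day 21 had 0 reads, which allows up to 0.0480 FPKM. No step between neighbours in this order exceeded counting error. Mttp, whose product loads lipid onto apolipoprotein B, ranged from 0.763 FPKM in ESC to 6.96 in FBS/KSR.

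The fibrinogen molecule needs an alpha, a beta and a gamma chain, and their genes Fga, Fgb and Fgg sit together on chromosome 3. Fgb stood at 13.2 FPKM in FBS/KSR, 12.9 at day 6, 11.7 at day 15, 10.3 in Em-, 5.81 in the day 4 control and 4.39 at day 21. It was 1.67 FPKM in Em+, 1.29 in XEN-like cells, 1.23 with Opt. VPA, 1.05 in N2B27 and 0.193 in sorted OG+ cells. MEF, CiPSC and ESC had 0 reads, which allows up to 0.198 FPKM. FBS/KSR, Em- and days 6 and 15 of stage III thus held levels near each other, and the fibroblast and pluripotent ends of the series held none detectable at this depth.

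Fgg was highest at day 15 with 14.8 FPKM, then FBS/KSR with 11.9, day 21 with 9.86, Em- with 4.51 and day 6 with 4.09. The day 4 control had 1.26 FPKM, ESC 1.18, Em+ 0.967, Opt. VPA 0.912, N2B27 0.339, sorted OG+ cells 0.203 and CiPSC 0.111. XEN-like cells and MEF had 0 reads, which allows up to 0.226 FPKM. Fgb and Fgg correlated across the 14 libraries (Pearson r 0.84, Spearman rho 0.80), less closely than Fgb and Rbp4, which are not neighbours (0.87 by both measures). The Fgb to Fgg ratio differed between libraries. It was 4.61 (2.51 to 9.13) in the day 4 control, 3.15 (2.36 to 4.27) at day 6, 0.790 (0.625 to 0.997) at day 15 and 0.445 (0.321 to 0.612) at day 21. The beta gene was the more abundant in the day 4 control and at day 6, and the gamma gene at days 15 and 21. With Opt. VPA at day 4 the ratio was 1.35 (0.607 to 3.09), from 17 reads of Fgb and 12 of Fgg. That interval includes equal levels. In ESC, 17 reads of Fgg stood beside 0 of Fgb, and in XEN-like cells 18 reads of Fgb beside 0 of Fgg.

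The alpha chain gene did not follow. Fga reached 1.19 FPKM in Em-, 0.321 in Em+ and 0.305 in FBS/KSR, and at most 0.140 in the other 11 libraries. The Fgb to Fga ratio was 8.59 (5.80 to 13.1) in Em-, 43.2 (25.4 to 80.0) in FBS/KSR and 92.1 (35.4 to 341.3) at day 6. Fga was below Fgb in every library with more than 30 reads of Fgb, and among these the ratio was lowest in Em-. A RefSeq noncoding gene, Gm30097, overlaps Fgg and has no entry of its own name, so its reads cannot be told apart from those of Fgg.

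Retinol-binding protein 4 carries vitamin A in blood, bound to transthyretin. Rbp4 was detected in every library, at 32.4 FPKM in Em-, 22.4 in the day 4 control, 19.5 in FBS/KSR, 16.6 at day 6 and 14.4 at day 15. It stood at 9.77 FPKM in XEN-like cells, 9.36 in Em+, 9.19 with Opt. VPA, 8.89 at day 21 and 5.74 in N2B27. CiPSC, ESC and MEF gave 2.56, 1.59 and 0.941 FPKM, and the sorted OG+ cells 0.195 from 2 reads. With Apoe it was 1 of 2 members above 1.3 FPKM in XEN-like cells, and it was lowest in the sorted cells.

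Transthyretin, the carrier of thyroxine and partner of retinol-binding protein, had a narrower distribution. Ttr (chr18:20664209-20674326, GRCm38.p6) was highest at day 15 with 16.7 FPKM, then 11.2 in FBS/KSR, 9.54 at day 21, 8.57 in the day 4 control and 6.28 at day 6. The next library, XEN-like cells, had 1.16 FPKM, so that day 6 stood 5.41-fold (2.92 to 10.9) above it, and Opt. VPA had 0.780. N2B27 had 0.218 FPKM, Em- 0.0948, sorted OG+ cells 0.0870 and CiPSC 0.0714, each from 2 reads or fewer, and MEF, ESC and Em+ had 0 reads, which allows up to 0.338 FPKM. Libraries thus fell on either side of that step, with Opt. VPA, N2B27 and the reporter pair on the low side. The Rbp4 to Ttr ratio was 0.858 (0.664 to 1.11) at day 15 and 1.74 (1.46 to 2.08) in FBS/KSR, but 342 (60.9 to 13554) in Em-, where 305 reads of Rbp4 stood beside 1 of Ttr. The retinol carrier was at its highest where its partner was at or under the floor of 3 reads. Ttr overlaps a RefSeq noncoding gene, Gm16090, whose entry reached at most 0.503 FPKM, with the same limit on shared reads.

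Alpha-fetoprotein, the fetal counterpart of albumin and the classical product of the yolk sac, was scarcely detected. Afp reached 1.72 FPKM in Em- from 31 reads, and no other library reached 1 FPKM. FBS/KSR gave 0.784 FPKM, Em+ 0.725, day 6 0.704, the day 4 control 0.508, Opt. VPA 0.285 and N2B27 0.254. Day 21, sorted OG+ cells, day 15, XEN-like cells and ESC gave 0.235, 0.203, 0.202, 0.113 and 0.0519 FPKM, and MEF and CiPSC had 0 reads, which allows up to 0.147 FPKM. Em- exceeded FBS/KSR by 2.19-fold (1.25 to 3.87), and no other step in the order exceeded counting error. Its neighbours on chromosome 5 were as low, with Alb at most at 0.116 FPKM and Afm, another albumin relative, at 0.721.

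**Figure D2:**
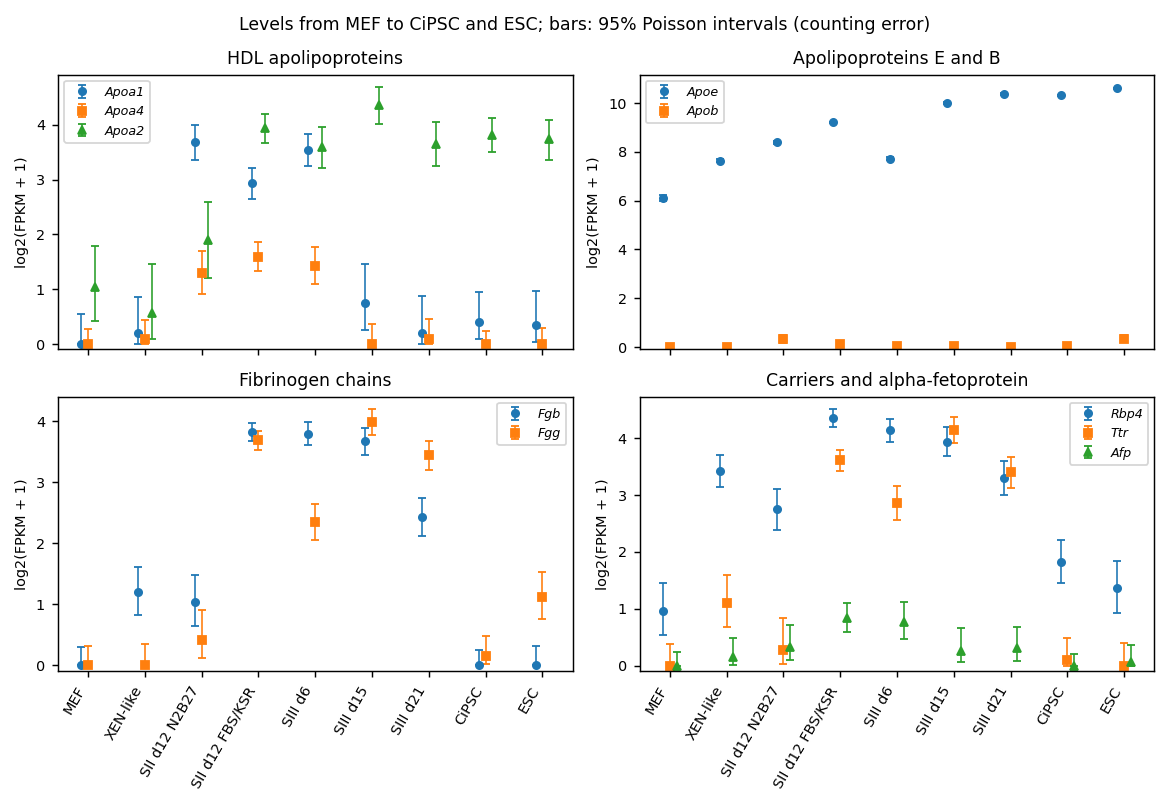
Points are levels on log2(FPKM + 1) in the libraries from MEF to CiPSC and ESC, with both stage II media, and bars are 95% Poisson intervals for counting error. Apoa1 and Apoa4 sit at stage II and day 6 and are under 1 FPKM from day 15 on, while Ttr and Fgg are highest at day 15 and Apoe is at 1021 FPKM or more from day 15 on.

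**Figure D3:**
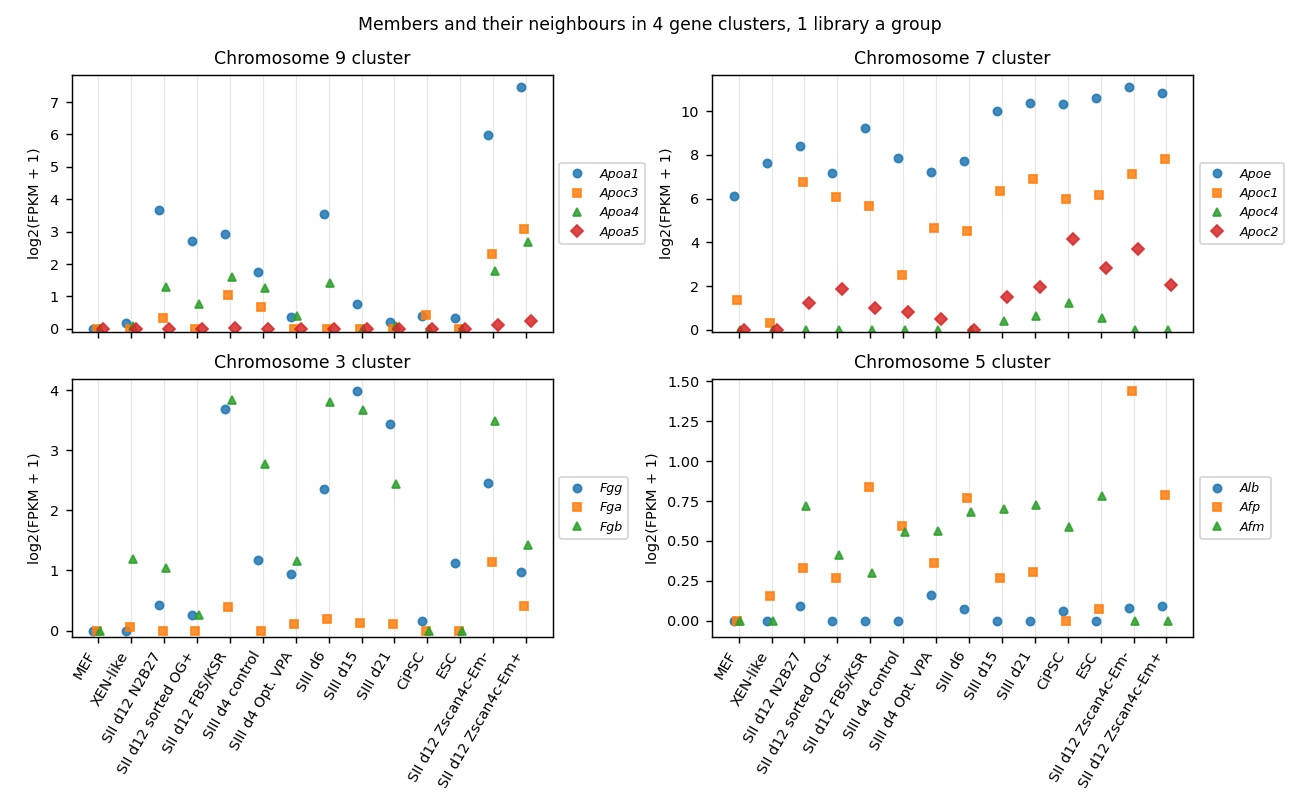
Points are levels on log2(FPKM + 1) of members and their neighbours in 4 gene clusters, in each of the 14 libraries. Apoa1, Apoc3 and Apoa4 are all highest in Em+, Fga lies below Fgb in each library where Fgb has more than 30 reads, and Alb, Afp and Afm stay under 1.8 FPKM.

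The comparisons below set 1 library against 1 other. A gene was tested where either library had 1 FPKM or more, and called where log2(FPKM+1) differed by 1 or more, which is 2-fold on that scale. The share of all tested genes called in the same direction is given beside the members' count.

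Against MEF, XEN-like cells had 4 of 5 tested members called higher (18.8% of all tested genes) and 0 called lower (17.5%). Rbp4 was 10.4-fold (5.39 to 22.4) and Apoe 2.95-fold (2.67 to 3.25) the MEF level. Fgb was at least 6.92-fold and Ttr at least 4.61-fold higher, both from under 20 reads. The median log2 difference over all 10 members, tested or not, was 0.17, beside 0.21 over all tested genes. Untested members, under 1 FPKM in both libraries, pull such a median towards no difference, so it does not compare like with like. Of the 17 factor genes of visceral endoderm and liver, 9 of 12 tested were called higher and 2 lower, and of 27 other serum protein genes 3 of 7 were higher and 3 lower. Parietal markers had 9 of 15 higher and 3 lower, visceral markers 13 of 15 higher and 0 lower, and fibroblast markers 2 of 15 higher and 13 lower.

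The N2B27 library against XEN-like cells had 3 of 7 tested members called higher (17.7% of all tested genes) and 0 lower (8.56%). All 3 were HDL apolipoproteins. Apoa1 stood at 82.1 times (14.3 to 3286) its XEN-like level, which was 1 read, Apoa4 at 22.5 times (3.60 to 932) and Apoa2 at 5.62 times (1.20 to 52.8). The fibrinogen and carrier genes were not called, with Fgb at 0.812 (0.366 to 1.75) and Rbp4 at 0.587 (0.404 to 0.845) of the XEN-like level. Ttr was at 0.187 (0.0204 to 0.842). Of the 17 visceral endoderm markers 2 of 15 tested were higher and 8 lower, of the 15 parietal markers 0 were higher and 12 lower, and the parietal list's sum was 6383 FPKM against 18984. Pluripotency markers had 7 of 10 higher and 1 lower, and trophoblast markers 6 of 10 higher and 1 lower.

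The FBS/KSR library against the same XEN-like cells had 7 of 8 tested members called higher (16.1%) and 0 lower (10.3%). This comparison shares its control with the last. Fgg, with 0 reads in XEN-like cells, was at least 52.5-fold higher, Fgb 10.2-fold (6.37 to 17.5), Ttr 9.65-fold (5.41 to 19.0) and Apoe 2.96-fold (2.80 to 3.14). The apolipoprotein genes Apoa1, Apoa2 and Apoa4 stood at 46.0, 29.4 and 31.0 times levels of 1 or 2 reads. The eighth, Rbp4, was 1.99-fold (1.57 to 2.55) and missed the call. The median over all members, tested or not, was 2.03, beside -0.02 over all tested genes. Of the other serum protein genes 9 of 10 tested were called higher and 1 lower, with prothrombin (F2) at 108 FPKM against 22.7. Parietal markers, at a sum of 24087 FPKM, had 2 called higher and 4 lower of 15. Trophoblast markers had 11 of 13 tested called higher and 0 lower, macrophage markers 5 of 5 higher, pluripotency markers 10 of 12 higher and 1 lower, and fibroblast markers 6 of 14 higher and 3 lower.

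Set directly against FBS/KSR, the N2B27 library had 0 of 8 tested members called higher (10.7%) and 5 lower (7.3%). Ttr was at 0.0194 (0.00234 to 0.0710) of the FBS/KSR level, Fgg at 0.0286 (0.00773 to 0.0740), Fgb at 0.0794 (0.0419 to 0.138), Apoa2 at 0.191 (0.0892 to 0.366) and Rbp4 at 0.294 (0.212 to 0.401). Apoa1 was the 1 tested member above its FBS/KSR level, at 1.78-fold (1.28 to 2.47), and was not called. Apoe was at 0.570 (0.543 to 0.598) and Apoa4 at 0.725 (0.412 to 1.23). The median over all members, tested or not, was -1.21, beside 0.07 over all tested genes. Other genes moved along with them: 9 of 15 parietal markers were called lower and 0 higher, 9 of 13 trophoblast markers lower and 2 higher, and 5 of 15 tested visceral markers lower and 2 higher. Macrophage markers had 5 of 5 tested lower (list sums of 30.1 and 113 FPKM), blood and endothelial markers 3 of 4 lower and 0 higher, fibroblast markers 7 of 15 lower and 1 higher, and pluripotency markers 3 of 12 lower and 1 higher. Cubn stood at 4.48 FPKM in N2B27 and 127 in FBS/KSR. The part of these cell types in the difference was not tested. Medium, feeders and plating density differ together between these cultures.

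The sorted OG+ cells against the unsorted N2B27 library had 1 of 6 tested members called higher (12%) and 2 lower (12%). Rbp4 stood at 0.0340 (0.00400 to 0.130) of the unsorted level and Apoe at 0.427 (0.398 to 0.459), while Apoa2 was 3.36-fold (1.66 to 7.50) higher. Beside them, 10 of 11 tested trophoblast markers were called higher and 1 lower (Gata3 stood at 266 FPKM against 2.46), and 1 of 15 parietal markers was higher and 6 lower, with list sums of 5812 and 6383 FPKM. Fibroblast markers had 0 of 15 higher and 8 lower, intestinal markers 4 of 6 higher, and macrophage markers 3 of 4 higher. Their part was not tested. The medium of the sorted cells is not in their label.

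Stage III day 6 was compared with both stage II media, since the labels do not say which came before it. Against N2B27, 5 of 8 tested members were called higher (9.99%) and 0 lower (8.98%). Fgb was 12.3-fold (7.02 to 23.5), Fgg 12.1-fold (4.48 to 45.7), Apoa2 4.03-fold (2.02 to 8.91) and Rbp4 2.89-fold (2.09 to 4.09) the N2B27 level, and Ttr 28.9 times a level of 2 reads. Against FBS/KSR, 0 of 8 were called higher (6.05%) and 2 lower (2.01%), namely Apoe at 0.357 (0.339 to 0.377) and Fgg at 0.345 (0.257 to 0.456). The 5 members called against N2B27 are the 5 called between the media, and both comparisons use the N2B27 library. Beside them, day 6 against N2B27 had 8 of 11 trophoblast markers called higher and 1 lower, 9 of 15 fibroblast markers higher and 1 lower, 6 of 15 parietal markers higher and 0 lower, and 3 of 5 macrophage markers higher and 0 lower. Against FBS/KSR, fibroblast markers had 8 of 15 higher and 0 lower, and trophoblast markers 5 of 13 higher and 4 lower.

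Between days 6 and 15 of stage III the members parted, with 3 of 8 tested called higher (6.23%) and 2 lower (5.02%). Apoe was 4.85-fold (4.60 to 5.12), Fgg 3.63-fold (2.69 to 4.95) and Ttr 2.66-fold (2.00 to 3.58) the day 6 level. Apoa1 was at 0.0646 (0.0172 to 0.172) of it, and Apoa4, with 0 reads at day 15 and 29 at day 6, was at least 7.21-fold lower. Fgb and Rbp4 stood at 0.909 (0.726 to 1.13) and 0.865 (0.675 to 1.10), intervals that include no difference. Parietal markers had 0 called in either direction, and trophoblast markers 1 higher and 7 lower of 11. Pluripotency markers had 9 of 12 called higher and 0 lower, with list sums of 3307 and 1436 FPKM.

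From day 15 to day 21, 0 of 6 tested members were called higher (1.72%) and 1 lower (7.5%). Fgb was at 0.375 (0.271 to 0.512) of its day 15 level. Ttr, Apoa2, Fgg and Rbp4 were at 0.570 to 0.665 of theirs without being called, each with an interval below 1, and Apoe was 1.29-fold (1.25 to 1.34). In the same pair 11 of 15 parietal markers were called lower and 0 higher, with list sums of 12807 and 6423 FPKM. Trophoblast markers had 8 of 11 lower and fibroblast markers 8 of 15 lower, with 0 higher in both lists.

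CiPSC against day 21 had 0 of 6 tested members called higher (4.88%) and 4 lower (15.4%). Fgb had 0 reads in CiPSC and was at least 27.7-fold lower, Fgg was at 0.0113 (0.00135 to 0.0416), Ttr at 0.00748 (0.000187 to 0.0427) and Rbp4 at 0.288 (0.185 to 0.439). Apoe, at 0.968 (0.942 to 0.994), and Apoa2, at 1.13 (0.770 to 1.67), were not called. Parietal markers had 14 of 15 called lower and 1 higher, with a sum of 612 FPKM in CiPSC, and 14 of 15 fibroblast markers, 8 of 11 trophoblast markers and 4 of 5 macrophage markers were lower.

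CiPSC and ESC differed in no member by the call, 0 of 4 tested in either direction (1.79% of all tested genes higher and 4.77% lower). With 1 library each there is no test, and absence of a call does not show equal levels. Fgg, at 2 reads in CiPSC and 17 in ESC, had a ratio of 0.0945 (0.0106 to 0.398), and Apoe a ratio of 0.818 (0.798 to 0.838). Apoa2 stood at 1.07 (0.741 to 1.54).

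Opt. VPA at stage III day 4 had 0 of 8 tested members called higher than in the control (5.77%) and 4 lower (3.28%). Ttr was at 0.0910 (0.0378 to 0.189) of the control level, Apoa1 at 0.121 (0.0132 to 0.533) from 2 reads against 13, Fgb at 0.212 (0.116 to 0.366) and Rbp4 at 0.409 (0.311 to 0.536). Apoa4 at 0.231 (0.0666 to 0.652) and Apoe at 0.634 (0.584 to 0.688) were lower beyond counting error and not called. Apoa2 stood at 1.05 (0.741 to 1.50). The median over all members, tested or not, was -0.76, beside 0.12 over all tested genes. Of the other lists, 0 of 15 parietal markers were called in either direction, 1 of 13 tested visceral markers was lower, 1 of 14 factor genes lower, and of the other serum protein genes 2 of 9 were higher and 1 lower. Trophoblast markers had 4 of 10 tested called higher and 0 lower. The summed parietal level was 16864 FPKM with Opt. VPA and 28753 in the control.

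**Figure D4:**
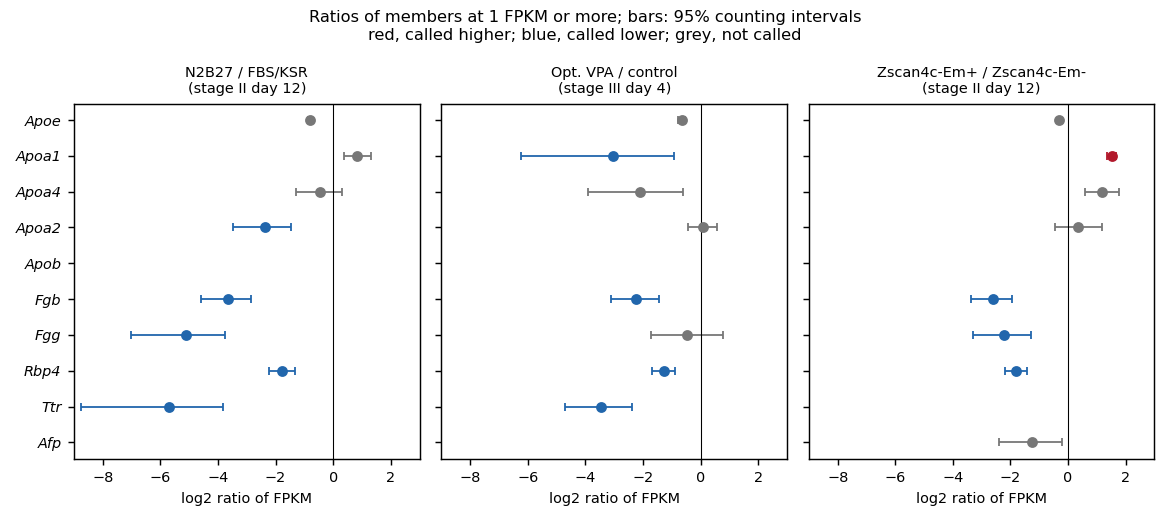
Points are log2 ratios of FPKM for members at 1 FPKM or more in either library, with 95% counting intervals, in 3 comparisons. Ttr, Fgb and Rbp4 are called lower in N2B27 and with Opt. VPA, and in the reporter pair Apoa1 is called higher and Fgb, Fgg and Rbp4 lower in Em+.

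Em+ against Em- had 1 of 8 tested members called higher (8.37%) and 3 lower (5.15%). Apoa1 was 2.85-fold (2.55 to 3.19) higher in the reporter-positive cells. Apoa4, not called, was 2.25-fold (1.50 to 3.43), and Apoc3 stood at 7.38 against 3.91 FPKM, from 27 reads against 17. Fgb was at 0.163 (0.0967 to 0.261) of the Em- level, Fgg at 0.215 (0.102 to 0.412) and Rbp4 at 0.289 (0.221 to 0.373), and Afp, not called, at 0.422 (0.191 to 0.863). Apoa1 and Apoa4 on chromosome 9 and Fgb and Fgg on chromosome 3 thus stood on opposite sides. Of the visceral endoderm markers 0 of 14 tested were called higher and 6 lower, with sums of 580 FPKM in Em+ and 1017 in Em-, and 4 of 15 parietal markers were lower and 1 higher. Trophoblast markers had 4 of 9 lower and 0 higher. The mitochondrial share was 7.37% of reads in Em+ and 14.1% in Em-. Scaled without mitochondrial names and the 10 highest entries, the members called here kept their calls, and any other part of that share was not tested.

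The pathways that use these products were read from lists of names. Of 22 genes that load, modify or take up lipoproteins, the widest ranges were those of the endocytic receptors Lrp2 (1.00 to 122 FPKM) and Lrp1 (9.38 to 637), the phospholipid transfer protein gene Pltp (3.23 to 82.7) and Lpl (4.53 to 99.2). In N2B27 against FBS/KSR the list had 2 of 20 tested genes called higher (10.7% of all tested genes) and 3 lower (7.3%). In CiPSC against day 21 it had 0 of 19 higher (4.88%) and 8 lower (15.4%). Of 12 genes that handle retinol, the retinol receptor gene Stra6, whose product takes retinol from retinol-binding protein, was at 581 FPKM in XEN-like cells, 125 in FBS/KSR, 13.6 at day 21 and 0 in MEF. Cyp26a1, which degrades retinoic acid, reached 939 FPKM in the day 4 control. The retinoic acid-binding protein gene Crabp1 ranged from 0.264 FPKM in sorted OG+ cells to 336 in MEF, and the retinal reductase gene Dhrs3 from 4.16 in CiPSC to 131 in the day 4 control. In Em+ against Em- the retinol list had 2 of 9 tested genes called higher (8.37% of all tested genes) and 6 lower (5.15%), beside the lower Rbp4.

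Among other liver-type serum protein genes the widest ranges were those of Apoc1, F2, Cp and Apoc2. F2 was at 0 in MEF, 22.7 FPKM in XEN-like cells, 108 in FBS/KSR, 73.5 at day 6, 13.3 at day 21 and 1.17 in CiPSC. Ceruloplasmin (Cp), a copper protein, was highest in the day 4 control at 41.3 FPKM and had 0 reads in CiPSC and in the reporter pair. The list's mean log2(FPKM+1) ranged from 0.41 in MEF to 1.52 at day 15, and that of the 10 members from 0.81 in MEF to 3.46 in Em-.

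**Figure D5:**
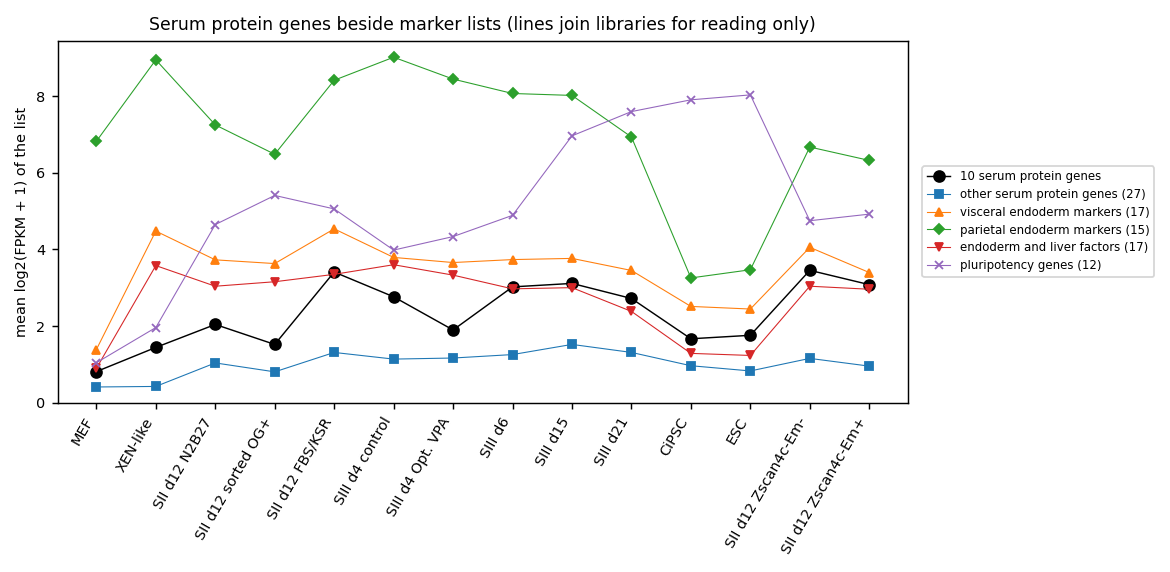
Points are means of log2(FPKM + 1) over the members and over 5 other gene lists in each library (number of genes in brackets). The factor list and the visceral and parietal lists are already high in XEN-like cells, where the serum protein mean is 1.44, and the serum protein mean is 3.41 in FBS/KSR, 2.04 in N2B27 and 1.67 in CiPSC.

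The factor genes did not follow a common course with the members. Hnf4a, a nuclear receptor gene, was at 19.6 FPKM in FBS/KSR, 12.6 in the day 4 control, 11.0 in N2B27, 4.55 in XEN-like cells and 0 in MEF. Foxa3 was highest in the day 4 control (8.36 FPKM), day 15 (6.19) and FBS/KSR (5.46), and correlated with Ttr (Pearson r 0.76) and Fgb (0.78) across the 14 libraries. Hhex, a homeobox gene of the anterior visceral endoderm, correlated with Apoe (0.92). It stood at 3.21 FPKM in XEN-like cells, 11.3 at day 21, 8.60 in CiPSC, 6.82 in ESC and 11.4 in Em-, so it was not confined to endoderm-like libraries. Gata4, Sox17 and Foxa2 were highest in XEN-like cells. These correlations share libraries, depth and scaling, and are descriptions.

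Genes whose course was most like that of a member were taken as the 3 with the highest Pearson r on log2(FPKM+1) among genes at 10 FPKM or more in some library. For Ttr they were Gkn2 (0.96), Pga5 (0.95) and Vsig2 (0.94), for Apoe Sh3gl2 (0.95), Mrps16 (0.93) and Hhex (0.92), and for Fgg Erlin1 (0.94), Gkn2 (0.86) and Prl2a1 (0.85). For Fgb they were Gkn1 (0.90), Prosc (0.88) and Ccdc64 (0.87), and for Rbp4 Prosc (0.89), Plscr1 (0.86) and Spock1 (0.85). For Apoa1 they were Pnliprp2 (0.93), Ovol1 (0.92) and RP24-276M8.1 (0.91), and for Apoa4 Defa24 (0.89), RP24-276M8.1 (0.89) and Cklf (0.88). Afp was most like RP24-276M8.1 (0.90), Slc25a48 (0.84) and Pigr (0.83), Apoa2 like Mapk1ip1 (0.86), Pltp (0.84) and Grtp1 (0.83), and Apob, with few reads, like Spry2 (0.74), Tbl2 (0.71) and Surf2 (0.70). The mean of the 10 was most like Ly6k (0.94), Ccdc64 (0.87) and Ccdc172 (0.86).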

How the data were processed

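Bulk RNA-seq of 14 libraries was used, 1 per group. The deposited FPKM values were made by the authors. Per the labels' protocols, total RNA went into NEBNext Ultra libraries. The submitters' processing notes name, without saying what each was used for, Bismark, Bowtie2, FastQC, Cell Ranger 2.0.1 and build mm10. For the FPKM table, the sources used here give no aligner, counting tool, annotation or strand setting.

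Because FPKM is reads divided by length and library total, ratios across libraries gave whole reads for 23178 entries above 0 in at least 2 libraries. Entry lengths came out whole within 0.001 base for 99.988% of 16931 entries checked. Recovery and calls were tested on simulated data. Intervals are exact 95% Poisson (level) or binomial (ratio), and the floor is 3 reads. PCR duplicates cannot be seen, so both cover counting error only. Differences used log2(FPKM+1), a minimum of 1 FPKM in either library and a 2-fold call, in 13 comparisons.

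By the rule for named genes, every member is named with its value in every library. Of the 14 other lists (195 of 196 genes matched), the genes named are the 4 with the widest range and those a result turns on (genomic neighbours, partners in a complex and defining markers of a cell type). Foxa1 and Cebpa, Tyrobp and Dab2 were added after their values were seen. A gene each of the factor and liver lists that the rule would name is not reported here. The members and lists were chosen with earlier results of these data known. Alternatives were another pseudocount, minimum FPKM and scaling. Sequences and gene positions come from RefSeq (GRCm38.p6), matched by symbol for all 10 members. Python 3.11.15, numpy 2.4.6, pandas 2.3.3, scipy 1.17.1 and matplotlib 3.10.9 were used.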

Additional observations from a re-analysis of the deposited data

How the results depend on the processing

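Of 130 recomputed counts of members called (13 comparisons, both directions, 5 alternatives), 123 stayed within 1.5 times the count reported. A pseudocount of 0.1 gave 1 member lower in N2B27 against XEN-like cells (Ttr), 4 lower in sorted OG+ against N2B27 cells (Apoa1 and Fgb in addition), 1 lower in CiPSC against ESC (Fgg) and 2 higher in Em+ against Em- (Apoa4 in addition). A minimum of 5 FPKM left 2 higher in XEN-like cells against MEF (Apoe and Rbp4), 1 higher in N2B27 against XEN-like cells (Apoa1) and 1 lower at day 15 against day 6 (Apoa1), since fewer genes were then tested. Of the 47 called differences of single members, that minimum left 10 untested, the other 37 kept their call, and the other alternatives changed none. With no minimum, with median-of-ratios scaling, or scaled without mitochondrial names and the 10 highest entries, each of these counts stayed within that range, and no called difference changed sign under any of the 5. With median-of-ratios size factors, the median log2 difference over all tested genes shifted by -0.18 in XEN-like cells against MEF, 0.11 in day 21 against day 15, 0.19 in CiPSC against day 21, 0.13 in CiPSC against ESC and -0.10 with Opt. VPA. Over all 14 libraries it kept the highest library of 9 of the 10 members and moved that of Apoa2 to the day 4 control. The lists of most similar genes were less stable: of 33 places (members and their mean), 16 were shared with a pseudocount of 0.1 and 9 with Spearman rho. No paired analysis was possible because each group has 1 library, so no result has a replicate check. At 6601290 to 15294927 reads, values under about 1 FPKM rest on few reads, and most neighbouring steps in the order of such values are within counting error.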
